A study of Homo sapiens with 4 samples.

Results

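miR-4728 is a hairpin inside ERBB2, the gene of the receptor tyrosine kinase HER2, and its mature strands, miR-4728-3p and miR-4728-5p, are 2 of the 1308 human miRNA entries measured here in exosomes of hepatoma cells. Both entries were found by their exact names. The pair was chosen by a measured value, the large rise of miR-4728-3p intensity after camptothecin in earlier results of these data, so the change of either arm between the groups is given as a description, with no test. Exosomes are small vesicles that cells shed into their medium. The source was Hep3B, a line established from a human liver cancer, held for 2 days in medium free of exosomes. The study used 2 arrays for cells given 10 µM camptothecin, a topoisomerase I poison that causes DNA strand breaks, and 2 arrays for cells labelled as given no treatment, although the headers of the authors' ratios call that comparator DMSO. All arrays carried small RNA labelled with the dye Cy5. Whether replicate arrays stand for separate cultures is not in the labels, so the spread between them may be technical.

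A miRNA hairpin is cut into a pair of strands, the 5p and the 3p arm, and usually 1 of them is loaded into an Argonaute protein to guide repression while the other is degraded. Hairpins within introns are made from the host gene's transcript, and in mirtrons the spliced intron itself forms the hairpin and bypasses the nuclease Drosha. miR-4728 is known from breast cancers with amplified ERBB2, where miR-4728-3p rises with its host gene and has been reported to act on the estrogen receptor ESR1 and on the tailing of miR-21-5p. ERBB2 mRNA was not measured in these arrays.

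In RefSeq (GRCh38.p14) the hairpin lies on the plus strand at chr17:39726495-39726561, inside ERBB2 (39688094 to 39728658, also plus strand) and 2097 bases before that gene's annotated end. Exon positions were not used here. Both entries that RefSeq places within ERBB2 and the array measures are these arms. The hairpin has 67 bases and is shown whole, because the base composition of the arms is set beside their changes below. The seed of each arm (bases 2 to 8, which lead target pairing) is in capitals.
MIR4728 hairpin: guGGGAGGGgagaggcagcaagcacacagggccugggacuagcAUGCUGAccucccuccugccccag
miR-4728-5p: uGGGAGGGgagaggcagcaagca
miR-4728-3p: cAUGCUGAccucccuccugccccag
The 5p arm takes bases 2 to 24 of the hairpin and the 3p arm bases 43 to 67, its last. The 5p arm holds 12 G and 3 C among 23 bases, and the 3p arm 4 G and 13 C among 25. In the fold of lowest energy by RNAfold (-30.0 kcal/mol), 18 bases of the 5p arm pair with the 3p arm. The hairpin begins with GU and ends with AG, the letters at the start and end of most introns, as do 12 of the 189 measured hairpins with a RefSeq hairpin sequence (6.35%) and 36 of all 1562 RefSeq hairpins in the table (2.30%).

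miR-4728-3p read 2332 and 1911 (intensity in arbitrary units, replicates 1 and 2) after camptothecin, against 1202 and 1133 in untreated cells. Both treated arrays lay above both untreated arrays. The means were 2121 ± 298 after camptothecin and 1168 ± 48.9 in untreated cells (SD, n = 2 each), 1.81-fold, a log2 change of 0.85 ± 0.097 (limma's SE). By pairs of arrays, the log2 ratio ran from 0.67 to 1.04.

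miR-4728-5p moved the other way. It read 1656 and 1414 after camptothecin, against 2019 and 2231 in untreated cells. Both treated arrays lay below both untreated arrays. The means were 1535 ± 171 after camptothecin and 2125 ± 150 in untreated cells (SD, n = 2 each), a log2 change of -0.47 ± 0.088 (limma's SE), and the pairs of arrays ran from -0.66 to -0.29. Groups of arrays that did not overlap were common: this held for 1029 of 1308 entries (78.7%), 777 higher (59.4%) and 252 lower (19.3%) after camptothecin. The limma fit across all entries called 606 changed at a Benjamini-Hochberg adjusted p under 0.05 (46.3%), 459 higher (35.1%) and 147 lower (11.2%). This balance depends on the scaling, with 118 higher and 212 lower after median centring of each array and 90 and 79 with joint quantile normalization of the arrays, and 1 to 71 entries were called with 1 array left out, fewest without either untreated array. Since these calls belong to the contrast that chose the pair, nothing is read from them for either arm.

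**Figure D1:**
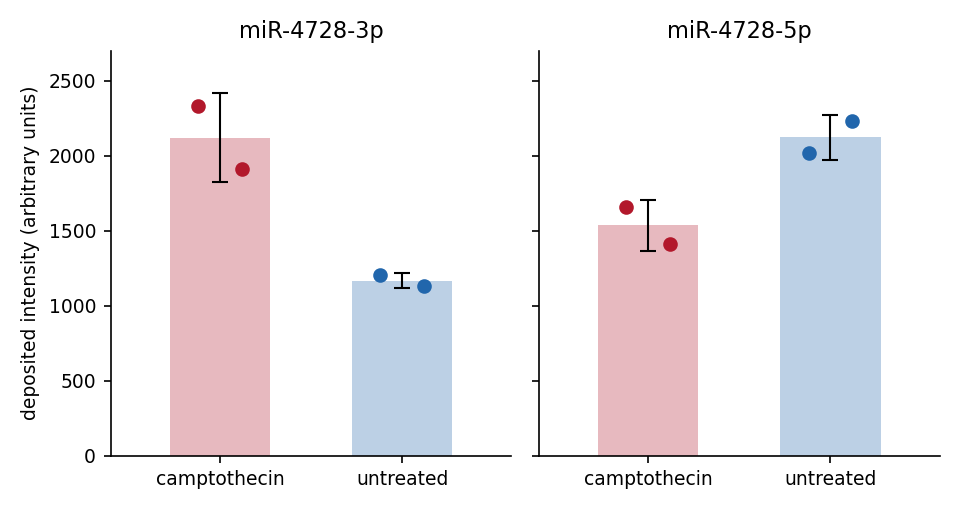
Deposited intensity (arbitrary units) of miR-4728-3p and miR-4728-5p on each array, with camptothecin left and untreated right in each panel. Points are arrays, bars are means and error bars are SD (n = 2 each). The 3p arm is at 2332 and 1911 against 1202 and 1133, the 5p arm at 1656 and 1414 against 2019 and 2231.

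Both arms were among the brightest entries. Their mean log2 levels lay at the 98.0 percentile (3p) and the 98.4 percentile (5p) of all entries. A probe's brightness depends on the probe as well as on the RNA, so these positions do not say which arm was the more abundant. Ordered by intensity within each array, miR-4728-3p stood at positions 11 and 15 after camptothecin, against 45 and 52 in untreated cells, so the groups stayed apart by position as well. miR-4728-5p stood at positions 21 and 30 after camptothecin, against 21 and 16 in untreated cells, so by position its groups met at 21. With all 4 arrays quantile normalized together, which keeps only these positions, the log2 change was 1.04 for the 3p arm and -0.21 for the 5p arm.

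Among all 1308 log2 changes, that of miR-4728-3p was the second highest and that of miR-4728-5p the 38th lowest, beside a median of 0.11 over all entries. Over the 327 brightest entries the median was -0.12, with 61 called higher and 129 lower by limma. The log2 change of the 3p arm was 0.75 after median centring of each array. With the 75th percentile of only the entries above the median level as the scale, it was 0.98. Both scalings move all entries of an array alike, so its place could not change. The 3p arm took place 7 (0.71) without camptothecin replicate 1 and place 1 (1.00) without camptothecin replicate 2. The 5p arm was below 0 in all of these settings.

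The difference between the arms on the same array is untouched by any factor common to an array. The log2 intensity of the 3p minus the 5p arm was 0.49 and 0.43 after camptothecin, against -0.75 and -0.98 in untreated cells. The mean was 0.46 ± 0.042 after camptothecin and -0.86 ± 0.16 in untreated cells (SD, n = 2 each). The difference thus changed by 1.33 ± 0.095 (limma's SE), a 2.51-fold change of the ratio of the arms. Replicate 2 of the treated cells read lower than replicate 1 for both arms, by 0.29 (3p) and 0.23 (5p) on the log2 scale, and the treated arrays therefore lay closer together in the arm difference than in either arm.

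This was set against the 231 hairpins with both arms measured under their own single names. The change of the arm difference was the largest of all 231 for miR-4728, as it was with all 4 arrays quantile normalized together (1.25), after normexp background correction (1.37), with pseudocounts of 16 and 64, and without any 1 of the arrays (1.21 to 1.44). The other 230 ran from -0.73 to 1.01, with a median of 0.081. Across the 231, limma called 91 arm differences changed (39.4%), 63 with the 3p arm gaining (27.3%) and 28 with the 5p arm gaining (12.1%), and the groups of arrays did not overlap for 163 (70.6%). As the largest of many values, chosen for its 3p arm, the difference for miR-4728 is a description.

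Opposite moves of the arms were not rare. Both arms had the same sign in 128 hairpins (115 up, 13 down), the 3p arm was above 0 and the 5p arm below in 71, and the reverse held in 32. The scaling moves such counts: hairpins with arms of the same sign were 108 after median centring of each array and 169 with the 75th percentile of only the entries above the median level as the scale. Calls by limma of a higher 3p and a lower 5p arm were found in 25 of the other 230 hairpins, and of the reverse in 5. Of the 84 hairpins whose arms were both at or above the median level, 47 had the 3p arm up and the 5p arm down, and the median change of the arm difference was 0.26. Of the 10 hairpins with both arms in the top 10 percent by level, 8 did so, with a median of 0.78. In that set miR-4728 was followed by miR-197 (1.01), miR-3620 (0.88), miR-1228 (0.86) and miR-483 (0.83), while miR-1273g (0.0035) and miR-574 (0.13) had the smallest values.

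**Figure D2:**
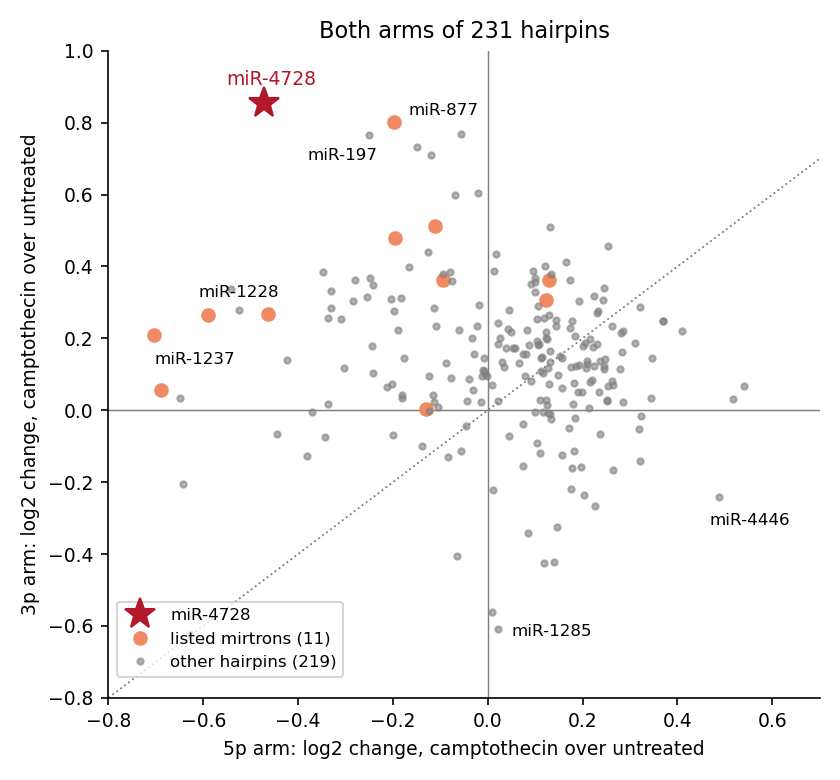
Log2 change (camptothecin over untreated) of the 3p arm (vertical axis) against that of the 5p arm (horizontal axis) for the 231 hairpins with both arms measured. The star is miR-4728 at 0.85 and -0.47, filled circles are 11 listed mirtrons, small dots the other 219 hairpins, and the dotted line marks equal change. miR-4728 is the point farthest above that line.

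Ranked by the change of the arm difference, and with both arms at or above the median level, the hairpins next to miR-4728 were miR-197 (3p 0.77, 5p -0.25), miR-877 (3p 0.80, 5p -0.20), miR-1237 (3p 0.21, 5p -0.70) and miR-3622a (3p 0.73, 5p -0.15). miR-197-3p is known to act on the tumour suppressor TUSC2, and miR-877 is a mirtron of the transporter-family gene ABCF1. On the deposited scale, the larger part of the change in miR-197, miR-877 and miR-3622a lay in the 3p arm, as in miR-4728. In miR-1237, a mirtron of the kinase gene RPS6KA4, it lay in the 5p arm. Such a split moves with the scaling. For miR-4728 the arms changed by 0.75 (3p) and -0.58 (5p) after median centring of each array. With joint quantile normalization they changed by 1.04 and -0.21. For the other hairpins the split under other scalings is not given.

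Human mirtrons were compared because the miR-4728 hairpin shares their GU and AG ends. Of the 13 listed, all among the first annotated in human cells, 11 had both arms measured under matching names. The 3p arm gained on the 5p arm in all 11, by 0.13 to 1.00 with a median of 0.67. Among all 231 hairpins it gained in 140 (60.6%). All listed mirtrons but miR-1226 had both arms at or above the median level. Of the 84 hairpins at that level, the 3p arm gained in 64 (76.2%), and the median of the 84 was 0.26. limma called 8 of the 11 as gaining and 0 as losing, beside 27.3% gaining and 12.1% losing among all hairpins. Of the 84 hairpins with both arms at or above the median level, it called 43 gaining and 14 losing. The 12 measured 3p arms had a median log2 change of 0.29, with 9 called higher and 0 lower, and the 12 measured 5p arms had a median of -0.20, with 0 called higher and 6 lower, beside 35.1% called higher and 11.2% lower among all entries. miR-877 (1.00), miR-1237 (0.91), miR-1228 of the lipoprotein receptor gene LRP1 (0.86) and miR-1234 (0.74) changed most. miR-1229 of the glycosyltransferase gene MGAT4B (0.23), miR-1226 of the helicase gene DHX30 (0.19) and miR-1225 of the polycystin gene PKD1 (0.13) did not pass. All 10 listed mirtrons with a hairpin sequence in the table had the GU and AG ends. The 11 hairpins with those ends other than miR-4728, these 10 and miR-3620, had a median of 0.67, against 0.074 for the 177 other hairpins with a sequence. In those 11, the G percentage of the 3p arm lay 31.8 to 56.7 points below that of the 5p arm. The 49 hairpins with the largest such gaps, those 11 among them, had a median of 0.42, with 32 called gaining and 0 losing. The list was chosen with earlier results known, and its difference from other hairpins was not tested.

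**Figure D3:**
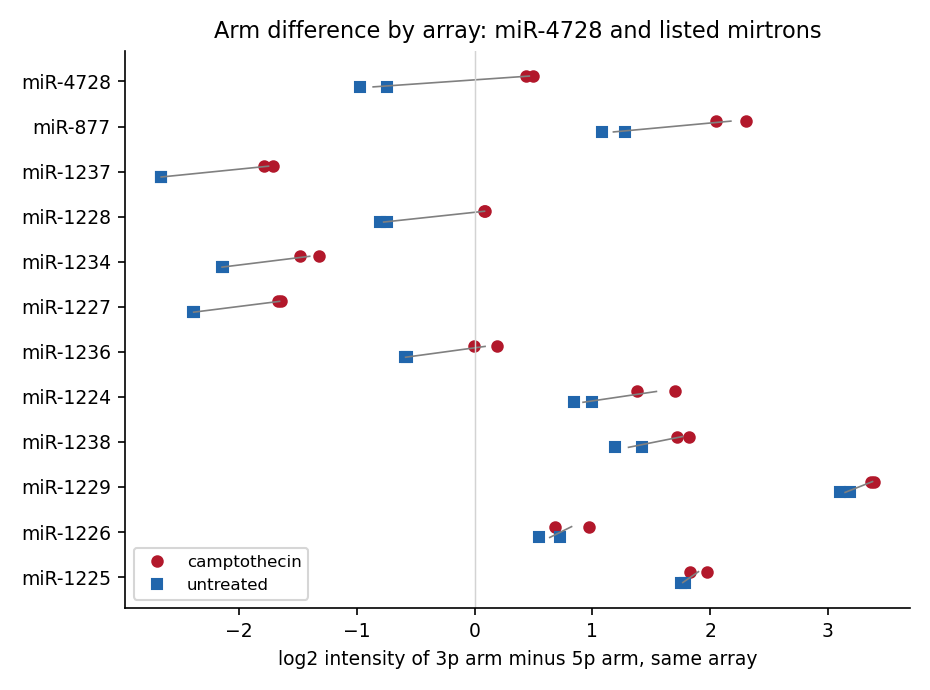
Log2 intensity of the 3p minus the 5p arm on the same array, for miR-4728 (top) and 11 listed mirtrons ordered by change. Circles are the 2 camptothecin arrays, squares the 2 untreated arrays, and grey lines join the group means. Camptothecin values lie to the right of untreated ones in every hairpin but miR-1226, where they overlap. Among all 231 hairpins they lay higher without overlap in 103 and lower in 60. For the 84 with both arms at or above the median level, this held in 54 and 20. Positions between hairpins are not comparable, since probes differ.

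The mature sequences differed in base composition along with the changes. By exact name, 1105 of the 1308 entries matched a RefSeq mature sequence. Across these entries, which share the 4 arrays and are not independent, the log2 change correlated with the percentage of G at Pearson's r = -0.55 (Spearman's rho = -0.49) and with that of C at r = 0.20 (rho = 0.19). Among the 271 of the brightest 327 entries with a sequence, r was -0.65 for G and 0.45 for C. miR-4728-3p, with 16% G and 52.0% C, was among the 296 entries poorest in G (up to 19.0%), where the median log2 change was 0.19, with 163 called higher and 7 lower by limma. miR-4728-5p, with 52.2% G and 13% C, was among the 255 richest in G (from 41.2%), where the median was -0.046, with 29 called higher and 91 lower. Among the brightest entries alone, the 70 poorest in G (up to 17.4%) had a median of 0.24, with 39 called higher and 3 lower. The 65 brightest entries with 41.2% to 52.4% G, miR-4728-5p among them, had a median of -0.18, with 4 called higher and 35 lower. In G percentage the arms differed in the direction in which entries at large differed in change. For C, the median over all entries went from 0.089 in the group poorest in C to 0.15 in the richest. Among the brightest entries there was no steady order by C. The 69 poorest in C, miR-4728-5p among them, had a median of -0.13. The next 67 and 70 by C had lower medians, -0.24 and -0.17. The 65 richest in C, miR-4728-3p among them, had a median of 0.27.

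miR-4728-3p had the highest log2 change of those 296 entries, and of the 253 entries richest in C (from 32.0%). That place was fixed beforehand, since the only entry with a higher change, miR-1976 (0.89), matched no sequence. miR-4728-5p was the 25th lowest of the 255 richest in G. Across the 196 hairpins with both mature sequences, the change of the arm difference correlated with the G percentage of the 3p minus the 5p arm at r = -0.61 (rho = -0.57), and with that of C at r = 0.56 (rho = 0.54). In G percentage the 3p arm of miR-4728 was 36.2 points below its 5p arm, the 23rd largest deficit of 196. The 49 hairpins with the largest deficits, miR-4728 among them, ran from 26.2 to 56.7 points. Their median change was 0.42, with 32 called gaining and 0 losing. Having the largest change of all hairpins, miR-4728 was bound to lead them, and the next highest was 1.01. The 10 hairpins with the largest deficits, from 47.6 to 56.7 points, ran from 0.23 to 1.01. The probes' own sequences were not used here, and the part of base composition in the change of either arm was not tested.

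**Figure D4:**
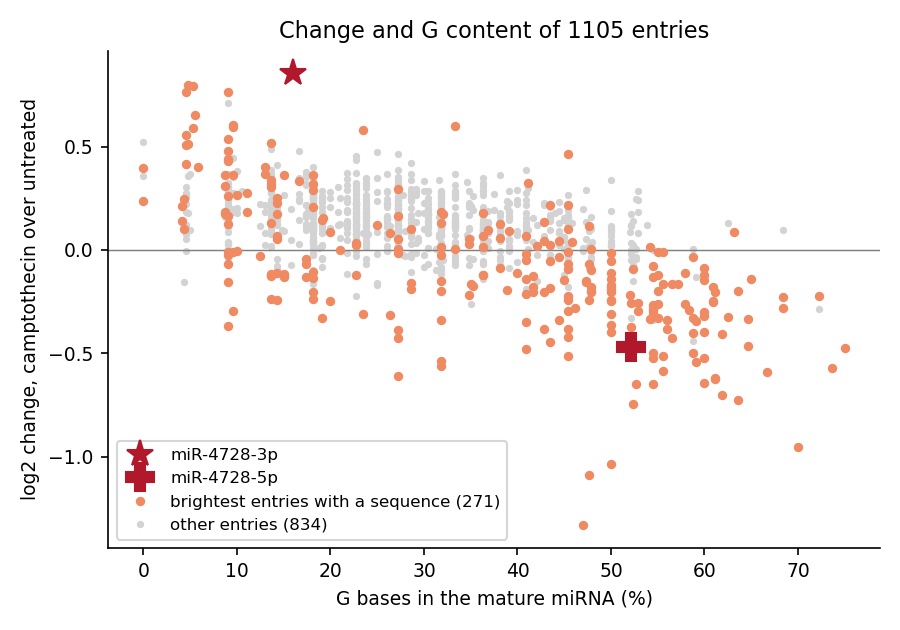
Log2 change (camptothecin over untreated) against the percentage of G in the mature miRNA for 1105 entries with a RefSeq sequence. The star is miR-4728-3p (16% G, 0.85) and the plus miR-4728-5p (52.2% G, -0.47). Orange points are the 271 brightest entries with a sequence and grey points the other 834. Entries rich in G lie lower (r = -0.55 over all points).

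The entries with the pattern most like each arm were taken by the distance between their 4 log2 intensities, each centred on its own mean. Nearest to miR-4728-3p were miR-3622a-3p (distance 0.12, log2 change 0.73), miR-1976 (0.16 and 0.89), miR-6511a-3p (0.18 and 0.76), miR-197-3p (0.23 and 0.77) and miR-6716-3p (0.26 and 0.71). Nearest to miR-4728-5p were miR-6089 (0.037 and -0.47), miR-4640-5p (0.076 and -0.42), miR-4688 (0.10 and -0.40), miR-3656 (0.12 and -0.46) and miR-4505 (0.12 and -0.51). Likeness over 4 arrays rests mostly on the difference between the groups. Those with a RefSeq sequence follow their arm, with seeds in capitals, to set their letters beside those of the arm. None has its seed.
miR-4728-3p: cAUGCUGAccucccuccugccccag
miR-6511a-3p: cCUCACCAucccuucugccugc
miR-197-3p: uUCACCACcuucuccacccagc
miR-6716-3p: uCCGAACUcuccauuccucugc
miR-4728-5p: uGGGAGGGgagaggcagcaagca
miR-6089: gGAGGCCGggguggggcggggcgg
miR-4640-5p: uGGGCCAGggagcagcugguggg
miR-4688: uAGGGGCAgcagaggaccuggg
miR-4505: aGGCUGGGcugggacgga
The 3 shown with the 3p arm held 4.55% to 9.09% G and 45.5% to 54.5% C, beside 16% and 52.0% in miR-4728-3p. The 4 shown with the 5p arm held 50% to 75% G and 16.7% to 18.2% C, beside 52.2% and 13% in miR-4728-5p. Whether these entries differ in composition from others of like change was not tested. The arms of the mirtron miR-877 had the same contrast, with 4.76% G in miR-877-3p and 55.0% G in miR-877-5p.

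By seed, miR-4728-3p stood alone: no other mature sequence in the RefSeq table has AUGCUGA at bases 2 to 8. The seed of miR-4728-5p, GGGAGGG, is shared by miR-149-3p and by miR-6785-5p, which was not analysed here.
miR-4728-5p: uGGGAGGGgagaggcagcaagca
miR-149-3p: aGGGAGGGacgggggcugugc
miR-149-3p, the less studied arm of miR-149, read 1077 and 997 after camptothecin, against 1400 and 1346 in untreated cells. Both treated arrays lay below both untreated arrays. The mean was 1037 ± 56.3 after camptothecin and 1373 ± 38.4 in untreated cells (SD, n = 2 each). miR-149-3p fell by 0.41 on the log2 scale (limma, Benjamini-Hochberg adjusted p = 0.0066), close to the -0.47 of miR-4728-5p, and it is rich in G as well (61.9%).

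A further list held miRNAs reported to act on the mRNAs of ERBB2 or of its partner receptor ERBB3. Of 6 listed, 4 were measured, with a median log2 change of 0.097, beside 0.11 over all entries. limma called 1 higher and 1 lower, a share near the 46.3% called among all entries. miR-331-3p read 151 ± 2.07 after camptothecin and 135 ± 0.604 in untreated cells (SD, n = 2 each) and was called higher (log2 change 0.16, limma adjusted p = 0.027). miR-559 read 366 ± 7.03 after camptothecin and 449 ± 14.2 in untreated cells and was called lower (log2 change -0.30, limma adjusted p = 0.012). miR-125b-5p (0.25, limma adjusted p = 0.072) and miR-125a-5p (0.031, limma adjusted p = 0.79) did not pass. All but miR-559 lay below the median level, and the median log2 change over all entries was 0.11.

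The labelled cell type was checked on miRNAs of hepatocytes. Of 5 listed, 4 were measured, and their levels lay between the 3.82 and 37.5 percentiles, though brightness also depends on the probe, so these positions neither bear out nor go against the label. Their summed intensity was 609 to 611 after camptothecin and 503 to 524 in untreated cells. The median over all entries was also higher after camptothecin, at 170 against 158. limma called all 4 higher, beside 35.1% of all entries, a share that depends on the scaling. None was among the brightest 327 entries, of which only 61 were called higher, so the share among dimmer entries was above 35.1%. Serum can bring in miRNAs of blood cells, and of 6 listed 3 were measured, at the 46.3 to 76.8 percentiles, with a summed intensity of 598 to 665 after camptothecin and 580 to 582 in untreated cells. The part of these in the change of miR-4728 was not tested.

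**Figure D5:**
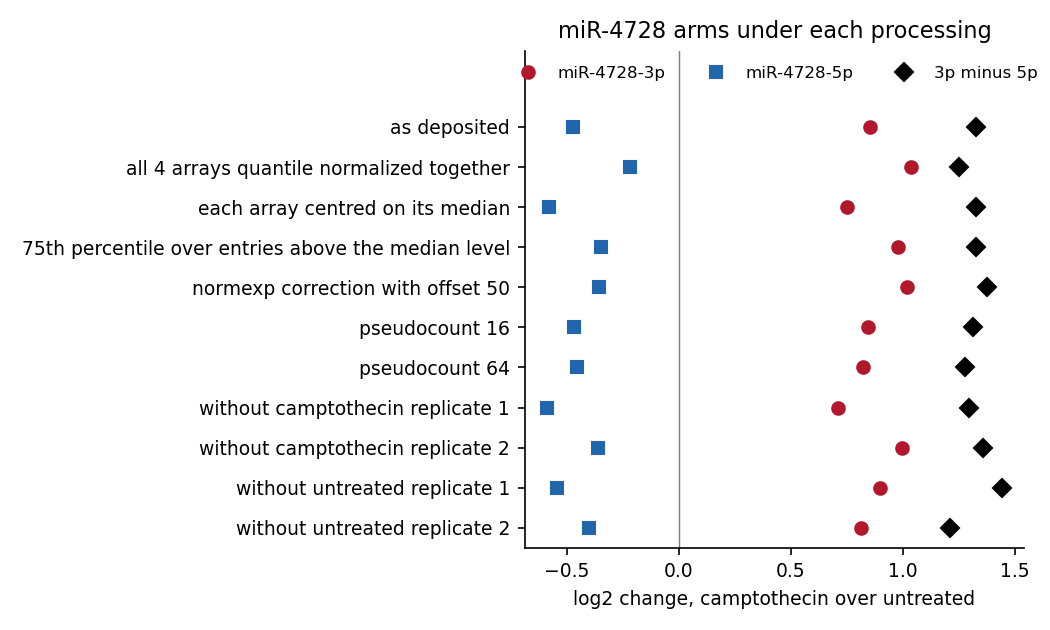
Log2 change (camptothecin over untreated) of miR-4728-3p (circles), miR-4728-5p (squares) and the difference of the arms (diamonds) for the values as deposited and under each alternative processing. The 3p arm stays between 0.71 and 1.04, the 5p arm between -0.59 and -0.21, and the arm difference between 1.21 and 1.44.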

How the data were processed

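The authors deposited intensities on a linear scale, 1 per probe and array, of small RNA amplified and coupled to Cy5 per the labels' protocols. How the arrays were scanned, corrected and normalized was not stated in the sources used here. Within each group the 1308 values, once sorted, are equal on both arrays, and the 75th percentile is 250.15 on all 4, as quantile normalization within groups and scaling would give. That shrinks the spread between replicates, so the p-values are too small. The authors' deposited log2 ratios equal differences of the log2 intensities within 5e-10 and gave only the names, and 4 columns of per-sample values beside them were not used.

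Log2 intensities were fitted with limma 3.58.1 in R 4.3.3 (lmFit, eBayes with intensity trend, two-sided, Benjamini-Hochberg adjustment over all 1308 entries, threshold 0.05), and log2 differences of the arms likewise over 231 hairpins. The code was tested on simulated data. RNAfold was version 2.7.2. The number of arrays limits the precision, and no background reading was used for dim probes. The members and lists were chosen with earlier results of these data known. Named were the arms, their 5 nearest patterns, entries sharing a seed, hairpins with the largest changes of the arm difference and the lists. The choice of miR-3620, miR-483, miR-1273g and miR-574 followed sight of their values. The closing section gives the alternatives tried.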

Additional observations from a re-analysis of the deposited data

How the results depend on the processing

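The change of the miR-4728 arm difference (1.33) was 1.25 with all 4 arrays quantile normalized together, 1.37 after normexp correction, and 1.31 and 1.28 with pseudocounts of 16 and 64. It ran from 1.21 to 1.44 with 1 array left out, but with 2 arrays per group that move cannot exceed the spread between replicates, and factors common to an array cannot move it at all, so neither shows stability. That of miR-4728-3p (0.85) became 1.04 with all 4 arrays quantile normalized together and 1.02 after normexp correction, and ran from 0.71 to 1.00 with 1 array left out. That of miR-4728-5p (-0.47) became -0.21 with all 4 arrays quantile normalized together and ran from -0.59 to -0.36 with 1 array left out. The 606 entries called became 169 under that joint quantile normalization (90 higher and 79 lower), 330 after median centring (118 and 212), 975 when the 75th percentile was taken from brighter entries (892 and 83), 191 after normexp correction (106 and 85), and 267 when dim entries below the median level were left out (125 and 142), where fewer were tested. They were 1 to 71 with 1 array left out, lowest without either untreated array. The 91 hairpins called ranged from 67 to 87 with 1 array left out, and were 66 with all 4 arrays quantile normalized together (53 gaining, 13 losing). Hairpins whose arms shared a sign (128) were 108 after median centring, 111 under joint quantile normalization, 117 after normexp correction and 169 when the 75th percentile was taken from brighter entries. They ranged from 123 to 133 with 1 array left out and were 24 of the 84 whose arms were both at or above the median level. With the replicate number as a block the calls were 550 entries and 82 hairpins. Deviations of same-numbered arrays correlated at -0.072, and nothing in the labels pairs them. Apart from the fewer entries tested, the cause of these differences was not tested.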

Other observations

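Hairpins in which the 5p arm gained on the 3p arm were fewer. Among those with both arms at or above the median level, the largest such changes of the arm difference were in miR-1285 (-0.63), miR-5585 (-0.57), miR-1909 (-0.56), miR-4725 (-0.49) and miR-3173 (-0.49). In miR-1285 and miR-5585 the 3p arm lay lower after camptothecin (log2 change -0.61 and -0.56) while the 5p arm was near 0 (0.020 and 0.0084). In miR-3173 the 5p arm was higher (0.52) and the 3p arm near 0 (0.031). These 5 were picked by these values, so their calls are not given. The 10 hairpins with the largest G excess of the 3p over the 5p arm ran from 34.1 to 48.1 points. The median change of their arm difference was -0.32, and 9 lay below 0. limma called 7 losing and 1 gaining, beside 12.1% and 27.3% of all hairpins. The 49 hairpins with the largest excess, from 9.52 points, had a median of only -0.10 and ran from -0.73 to 0.61. Of these, 13 were called losing and 5 gaining.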
